A study of Homo sapiens with 12 samples.

Results

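Oestrogen response genes are genes whose transcription in breast cancer cells is known to follow the oestrogen receptor, and 55 of them are described here in ZR-75-1, a human breast cancer line that expresses the receptor. They were chosen by name as known targets in breast cancer cells, mostly from outside the set that the study joined by chromatin loops to sites bound by the retinoblastoma protein Rb. The choice was made with earlier results of these data known. Shares of them set beside those of all genes are therefore a description. Each of the 55 symbols matched 1 row of the 60612 rows with a gene symbol in the count table. At least 3 of them, *GREB1*, *FCMR* and *SCNN1A*, belong to the loop-linked set, and the other 52 were not compared here with the complete set. Counts of genes are therefore also given without these 3.

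Oestrogen enters the cell, binds its receptor and lets it dimerise on DNA, where pioneer factors such as *FOXA1* have opened the chromatin and coactivators or corepressors then set the output. Genes switched on in this way encode growth factors, receptors, transporters and transcription factors, and many are read as markers of luminal breast cancer. The receptor's preferred DNA sequence is a palindrome of GGTCA and its reverse complement, although much of its binding falls in enhancers far from promoters. Rb is the pocket protein that holds E2F factors in check until the kinases CDK4 and CDK6 phosphorylate it, and abemaciclib inhibits those kinases.

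RNA was sequenced from 4 groups of 3 replicates each: sgControl cells, which carry a control guide RNA, and cells in which *RB1* was knocked out with CRISPR–Cas9, each treated for 5 days with DMSO, the solvent, or with 500 nM abemaciclib. All groups were grown in medium with serum, and no oestrogen or antioestrogen was added in the treatments the labels describe. Knockout lines were grown from sorted single cells, so a difference between the genotypes cannot be told apart from a difference between clones. The study describes its RNA-seq replicates as independent biological ones, while the labels give each library a replicate number and no culture.

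Library totals were 39907318 to 81636393 counts, and no pair of replicates agreed within sampling noise (chi-square per gene at least 3.49). *RB1* had at least 2090 counts in every sgControl library and 29 to 63 in the knockout libraries, as the labels state. Summed luminal epithelial markers lay between 13030 and 18680 CPM (counts scaled to equal library totals) in all libraries, whereas the basal markers *KRT5*, *KRT14* and *TP63* had at most 6 counts. In abemaciclib the luminal sum was 13030 to 13550 CPM in sgControl and 18220 to 18680 in knockout cells. In DMSO it was 13600 to 16010 and 15970 to 16780. The sum of all basal markers was 2.46 to 2.98 CPM in sgControl cells in abemaciclib and 11.1 to 18.5 elsewhere. It was carried by *ACTA2*, with up to 795 counts in a library, and *MYLK*, with up to 160. Fibroblast markers summed to 34.96 to 53.11 CPM over all libraries, carried by *COL1A1* with up to 3797 counts. Endothelial markers summed to at most 1.867 CPM. Leukocyte markers summed to 7.15 to 9.30 CPM in sgControl cells in abemaciclib and to under 0.78 elsewhere; the sum was carried by *LYZ*, while *PTPRC* had at most 3 counts and *CD3E* none. Mitochondrial genes held 3.49% ± 0.60 (SD, n = 3) of counts in sgControl cells in DMSO and 7.73% ± 0.70 in abemaciclib, against 3.98% ± 0.18 and 6.13% ± 1.1 in knockout cells; the part of these marker and mitochondrial shifts in the results below was not tested. The first sgControl library in DMSO was the lowest of its group for several long transcripts, including *GREB1*, *CELSR2*, *ABAT* and *IL6ST*, and several calls that change without it are named beside the results.

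The first question was how these genes responded to abemaciclib when Rb was present. In sgControl cells 36 of the 54 genes tested rose and 11 fell, with 7 not past the threshold of an adjusted p of 0.05 in DESeq2, the count model used throughout. Across all 22723 genes tested, 25.0% rose and 24.8% fell. Here and below, the genes of this background were not matched to the oestrogen response genes for expression. The median log2 fold change of the 54 genes was 0.56, against 0.01 over all genes. Without the 3 loop-linked genes, 33 rose and 11 fell. *CALCR*, the calcitonin receptor, was the gene not tested, with 2 counts in 1 library and none in the other 11.

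In *RB1*-knockout cells the same treatment raised 23 of the 54 genes and lowered 11, while 20 did not pass the threshold; 14.9% of all genes tested rose and 15.1% fell. The median was 0.09, against 0.02 over all genes. Without the loop-linked genes these counts were 21 and 10. The test of the difference itself, the interaction (the response in knockout cells minus that in sgControl cells), was negative for 29 genes and positive for 13, with a median of −0.43 against 0.03 over all genes. Over all genes tested 20.3% had a negative and 21.1% a positive interaction. Without the loop-linked genes the interaction was negative for 28 and positive for 12.

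Each library was also summarised by the median, over the genes, of its log2 difference from the gene's mean over the 12 libraries. That median was −0.15 ± 0.04 (SD, n = 3) in sgControl cells in DMSO, 0.39 ± 0.04 in sgControl cells in abemaciclib, −0.16 ± 0.03 in knockout cells in DMSO and −0.06 ± 0.03 in knockout cells in abemaciclib. The sgControl libraries in abemaciclib stood above the other 9, and the untreated groups of both genotypes overlapped. This is a description of the libraries, with no test.

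**Figure D1:**
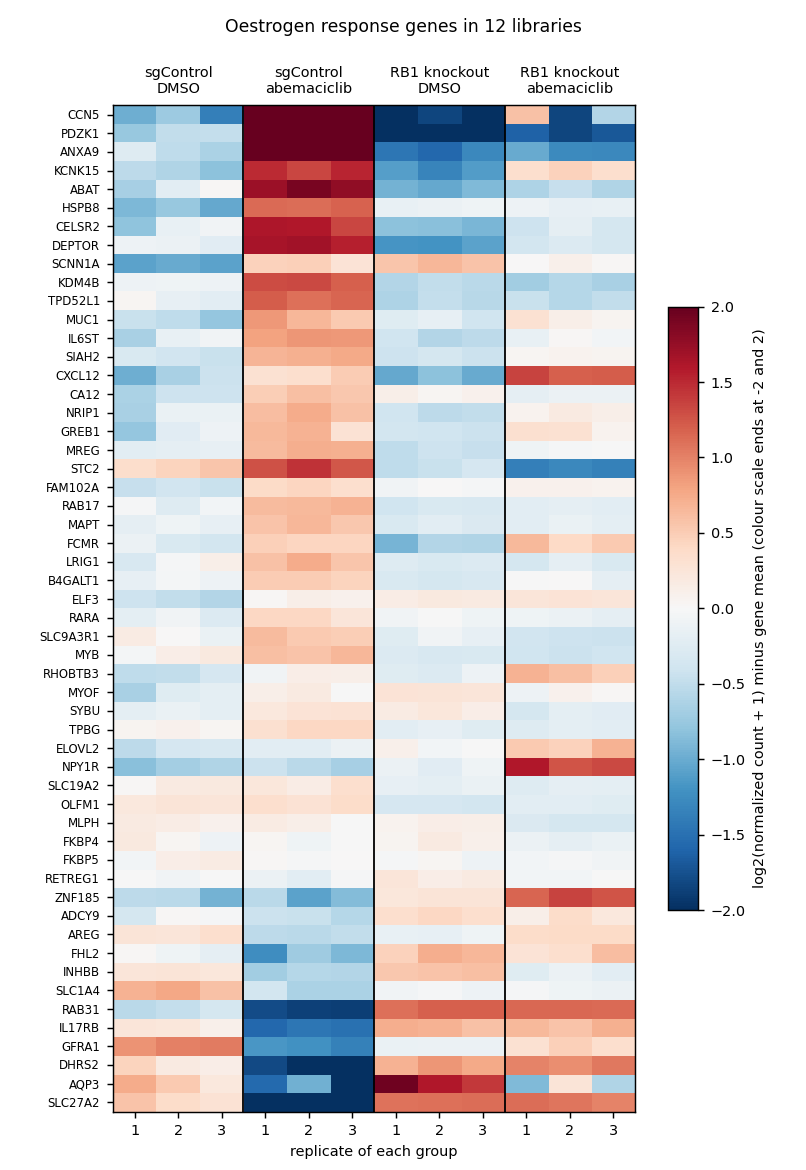
Each row is 1 of the 54 genes tested and each column 1 of the 12 libraries, in 4 groups of 3 replicates; colour gives log2(normalized count + 1) minus the gene's mean, with rows ordered by the response in sgControl cells and the colour scale ending at −2 and 2. The block of sgControl libraries in abemaciclib is red for the upper rows and blue for the lowest ones, and the first sgControl library in DMSO is paler or bluer than its replicates for some genes.

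Levels differed widely between the genes. Per kilobase of exon, *SLC9A3R1*, a scaffold that anchors membrane proteins to the cytoskeleton, was the highest in sgControl cells in DMSO at 61830 normalized counts per kilobase, followed by *MUC1* at 22470 and *FKBP4* at 20930. Besides *CALCR* the lowest were *CCN5* at 0.55 and *AQP3* at 5.67 per kilobase. Of the 55 genes, 53 had a count in every library and 52 averaged 100 normalized counts or more.

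Secreted proteins came first. Of the 6 on the list, 4 rose and 2 fell in sgControl cells, and 4 rose and 2 fell in knockout cells. That is 66.7% and 33.3% in each genotype. Of all genes tested 25.0% rose and 24.8% fell in sgControl cells, and 14.9% and 15.1% in knockout cells. *STC2*, the glycoprotein stanniocalcin, went opposite ways in the genotypes. Its normalized counts in sgControl cells were 1965, 2110.0 and 2266 in DMSO and 3733, 4224 and 3640.0 in abemaciclib. In knockout cells they were 1086, 1135 and 1219 in DMSO and 597, 633 and 604 in abemaciclib. Thus the drug groups did not overlap in either genotype, and the order of all 4 groups was sgControl in abemaciclib, sgControl in DMSO, knockout in DMSO and knockout in abemaciclib. Most genes shown here by library were chosen partly because their replicates did not overlap in some contrast. Separation in the contrast that chose a gene therefore adds no evidence. The log2 fold change was 0.87 ± 0.08 (SE, adjusted p = 1.66e-27) in sgControl and −0.91 ± 0.09 (SE, adjusted p = 3.19e-23) in knockout cells. Their difference was −1.78 ± 0.12 (SE, adjusted p = 5.37e-50), and the genotypes differed by −2.66 ± 0.08 (SE, adjusted p = 1.12e-216) in abemaciclib, with knockout cells lower.

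*CXCL12*, the chemokine that binds CXCR4, rose in both genotypes and more so without *RB1*. The normalized counts were 142, 179.8 and 208 in untreated sgControl cells and 347, 354 and 401 in treated ones. Knockout cells had 138, 159 and 139 in DMSO and 716, 646.5 and 655 in abemaciclib. Every treated library lay above every untreated one, and the 3 treated knockout libraries were the highest. Fold changes on the log2 scale were 1.05 ± 0.13 (SE, adjusted p = 2.87e-14) in sgControl cells and 2.21 ± 0.14 (SE, adjusted p = 3.67e-53) in knockout cells, with an interaction of 1.16 ± 0.19 (SE, adjusted p = 1.35e-08).

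*INHBB* encodes the beta subunit of activin B and fell in both genotypes. Its normalized counts went from 4796, 4882 and 4752 to 2497, 2729 and 2709 in sgControl cells. Without *RB1* they went from 5880.2, 6054 and 6173 to 3429, 3741 and 3515. No treated library reached an untreated one. The log2 fold change was −0.86 ± 0.05 (SE, adjusted p = 7.09e-56) in sgControl and −0.76 ± 0.05 (SE, adjusted p = 7.26e-43) in knockout cells; the 95% interval of the difference, −0.05 to 0.25, holds 0.

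*AREG*, a ligand of the epidermal growth factor receptor, fell in sgControl cells by 0.80 ± 0.06 (SE, adjusted p = 7.7e-37) on the log2 scale and rose in knockout cells by 0.51 ± 0.06 (SE, adjusted p = 1.83e-14), with an interaction of 1.31 ± 0.09 (SE, adjusted p = 2.91e-48). *OLFM1*, an olfactomedin glycoprotein, had small changes of 0.09 and 0.13, and its call in sgControl cells was lost with any 1 library left out except the second treated sgControl library and turned negative, at −0.04 (adjusted p = 0.61), when libraries were scaled by their totals. In knockout cells the call of *OLFM1* was lost without the third DMSO library (adjusted p = 0.065) or the first or second treated library (0.050 and 0.056).

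*CCN5*, a connective tissue growth factor relative first known as a WNT1-induced gene, was nearly silent outside 1 group. Its raw counts were 3, 4 and 3 in untreated sgControl cells and 148, 151 and 129 in treated ones. In knockout cells there were 0, 1 and 0 counts in DMSO and 9, 1 and 4 in abemaciclib. Only the treated sgControl libraries held more than 9 counts. The response in sgControl cells was 5.67 ± 0.55 (SE, adjusted p = 4.79e-24). With 1 count in DMSO and 14 in abemaciclib, the ratio in knockout cells was 12.5 with an exact 95% interval of 1.9 to 528 that covers counting error only. The DESeq2 call for this ratio was lost without the first or the third knockout DMSO library (adjusted p = 0.11 and 0.12) or without the first treated knockout library (0.16), and the interaction of *CCN5* did not pass the threshold (adjusted p = 0.23).

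Receptors and other cell surface proteins form the next group of 10, of which 9 were tested. In sgControl cells 6 rose and 2 fell, which is 66.7% and 22.2%, against 25.0% and 24.8% of all genes tested. In knockout cells 6 rose and 0 fell by DESeq2 (0 also at an unadjusted p under 0.05 and by edgeR). The knockout response of the other 3 did not pass the threshold. Of all genes tested 14.9% rose and 15.1% fell in knockout cells. *GFRA1*, the co-receptor for the neurotrophic factor GDNF, fell in sgControl cells from 3317, 3587 and 3674.5 normalized counts in DMSO to 791, 770.5 and 699.5 in abemaciclib. In knockout cells it went from 1627, 1647 and 1647 to 2195, 2481 and 2244. Untreated sgControl cells were the highest group and treated sgControl cells the lowest, with no overlap between any of the groups. The response was −2.23 ± 0.07 (SE, adjusted p = 7.34e-203) with *RB1* and 0.49 ± 0.07 (SE, adjusted p = 1.75e-10) without it. The interaction was 2.72 ± 0.10 (SE, adjusted p = 8.42e-154). In DMSO knockout cells were lower than sgControl cells, with a log2 difference of −1.10 ± 0.07 (SE, adjusted p = 3.42e-53).

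*IL17RB*, a receptor of the cytokine IL-25, had normalized counts of 1119.9, 1113 and 1024 in untreated sgControl cells and 321, 348 and 338 in treated ones. Knockout cells had 1574, 1535 and 1426 in DMSO and 1486, 1413 and 1560.4 in abemaciclib. Here the drug groups were apart in sgControl cells and overlapped in knockout cells. The response was −1.69 ± 0.08 (SE, adjusted p = 2.68e-93) in sgControl cells and −0.02 ± 0.07 (SE, adjusted p = 0.86) in knockout cells, with an interaction of 1.67 ± 0.11 (SE, adjusted p = 8.37e-51).

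*NPY1R*, a receptor for neuropeptide Y, showed the reverse arrangement. Normalized counts were 358, 397.5 and 420.2 in untreated and 474, 441 and 402 in treated sgControl cells, which overlapped. In knockout cells they were 593, 548 and 602.5 in DMSO and 1948, 1537 and 1597 in abemaciclib, without overlap. The log2 fold change was 0.16 ± 0.11 (SE, adjusted p = 0.25) in sgControl and 1.54 ± 0.11 (SE, adjusted p = 6.07e-44) in knockout cells, and the interaction was 1.39 ± 0.16 (SE, adjusted p = 9.16e-18).

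Among the rest, *MUC1*, the membrane mucin, rose by 1.26 in sgControl cells and by 0.43 without *RB1*, *IL6ST*, the shared signalling subunit of interleukin-6 family receptors, by 1.12 and 0.44, and *CELSR2*, an adhesion receptor of planar cell polarity, by 1.83 and 0.54. Each of these 3 had a negative interaction. *LRIG1*, a negative regulator of ERBB receptors, and *TPBG*, the trophoblast glycoprotein, rose in sgControl cells, by 0.69 and 0.33, while their knockout responses of −0.0049 and −0.01 did not pass the threshold. The interaction of *TPBG*, −0.34 ± 0.06 (SE, adjusted p = 5.7e-07), was lost with libraries scaled by their totals (−0.20, adjusted p = 0.057). *FCMR*, the immunoglobulin M receptor and one of the loop-linked genes, rose in both genotypes, by 0.71 and 1.22, with a positive interaction of 0.51 ± 0.17 (SE, adjusted p = 0.00598).

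Transcription factors, cofactors and chromatin enzymes numbered 7. In sgControl cells 6 rose and 1 fell, and in knockout cells 2 rose, with 5 not past the threshold. The rises and falls in sgControl cells are 85.7% and 14.3%, against 25.0% and 24.8% of all genes tested. The rises in knockout cells are 28.6%, against 14.9%. *GREB1*, a receptor cofactor and one of the most used markers of oestrogen action, is also one of the loop-linked genes. Its normalized counts were 8425, 12337 and 13354 in untreated sgControl cells and 22444.5, 23213 and 17507 in treated ones. Knockout cells had 11185, 10859 and 10635 in DMSO and 17910.0, 17704.5 and 15042 in abemaciclib. The drug groups did not overlap in either genotype, although the first untreated and the third treated sgControl libraries lay well below their replicates. The response was 0.89 ± 0.14 (SE, adjusted p = 1.21e-09) in sgControl and 0.63 ± 0.14 (SE, adjusted p = 6.48e-05) in knockout cells. Their difference, −0.26 ± 0.20 (SE, adjusted p = 0.32), had a 95% interval of −0.65 to 0.13, so neither a like response nor a smaller one in knockout cells is shown.

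In abemaciclib *GREB1* was lower in knockout than in sgControl cells, with a log2 difference of −0.32 ± 0.14 (SE, adjusted p = 0.0426). That call was lost in 13 alternatives, among them the fit with a replicate block (−0.32, adjusted p = 0.20), TMM scaling (0.056) and scaling by library totals (−0.20, adjusted p = 0.29). It was also lost with 1 library left out in 8 cases: the third sgControl DMSO library (adjusted p = 0.089), the first or second treated sgControl library (0.14 and 0.19), any of the 3 knockout DMSO libraries (0.054 to 0.057), and the second or the third treated knockout library (0.056 and 0.20).

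*NRIP1*, a corepressor that the receptor itself induces, rose by 0.93 ± 0.11 (SE, adjusted p = 5.4e-16) in sgControl cells and by 0.59 ± 0.11 (SE, adjusted p = 2.1e-06) without *RB1*. Its interaction of −0.34 ± 0.16 (SE, adjusted p = 0.0732) passed the threshold with a replicate block (adjusted p = 0.046) and without the second or the third sgControl DMSO library (−0.42 each, adjusted p = 0.026 and 0.013). *KDM4B*, a demethylase of histone H3 lysine 9 that works with the receptor, rose by 1.38 ± 0.05 (SE, adjusted p = 1.87e-154) in sgControl cells, whereas its knockout response was −0.09 ± 0.05 (SE, adjusted p = 0.18) and the interaction −1.47 ± 0.07 (SE, adjusted p = 2.19e-85). *MYB*, *RARA* and *ELF3*, which encode a proto-oncogene factor, retinoic acid receptor alpha and an epithelial ETS factor, rose in sgControl cells by 0.51, 0.54 and 0.58, had knockout responses of −0.10, −0.08 and 0.08 that did not pass the threshold, and each had a negative interaction. *FHL2*, a LIM domain cofactor, was the one that fell in sgControl cells. It fell by 0.86 ± 0.15 (SE, adjusted p = 5.21e-08), and its knockout response was −0.20 ± 0.14 (SE, adjusted p = 0.29).

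Transporters and channels numbered 6. In sgControl cells 2 rose and 3 fell, and in knockout cells 1 rose and 2 fell. That is 33.3% and 50% in sgControl cells, against 25.0% and 24.8% of all genes tested. In knockout cells it is 16.7% and 33.3%, against 14.9% and 15.1%, so the share that rose there was near that of all genes. *SLC27A2*, a fatty acid transporter and very long chain acyl-CoA synthetase, had the largest fall of all 54 genes in sgControl cells. Its normalized counts were 1577, 1372 and 1304 in DMSO and 205, 183 and 149.8 in abemaciclib. Knockout cells held 2251.5, 2286 and 2318 in DMSO and 2298, 2231 and 2106 in abemaciclib. The 6 knockout libraries all lay above the untreated sgControl libraries and overlapped between treatments. The response was −2.99 ± 0.10 (SE, adjusted p = 6.5e-178) in sgControl and −0.05 ± 0.09 (SE, adjusted p = 0.75) in knockout cells, with an interaction of 2.94 ± 0.14 (SE, adjusted p = 8.66e-102). In abemaciclib the genotypes differed by 3.63 ± 0.10 (SE, adjusted p = 5.02e-264).

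*SCNN1A*, the alpha subunit of the epithelial sodium channel and a loop-linked gene, rose with *RB1* and fell without it. Normalized counts in sgControl cells were 3058, 3218 and 3072 in DMSO and 8905, 8945 and 7782 in abemaciclib. Without *RB1* they were 9479, 10186 and 9568.5 in DMSO and 6482, 6887 and 6554 in abemaciclib. Untreated knockout libraries were the highest of the 4 groups and untreated sgControl libraries the lowest. The response was 1.46 ± 0.06 (SE, adjusted p = 2.09e-112) in sgControl and −0.55 ± 0.06 (SE, adjusted p = 2.09e-16) in knockout cells, the interaction −2.01 ± 0.09 (SE, adjusted p = 1.74e-107) and the genotype difference in DMSO 1.65 ± 0.06 (SE, adjusted p = 4.13e-142). LTBR overlaps its locus on the opposite strand. Reads from the stretch where the 2 genes overlap can be told apart only if the authors counted by strand, which is not stated.

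*KCNK15*, a tandem-pore potassium channel, rose in both genotypes. Its normalized counts went from 155.5, 147 and 127 to 635, 567 and 648 in sgControl cells. In knockout cells they went from 104, 89.2 and 102 to 283, 309.6 and 283. The treated groups were apart from the untreated ones and from each other. The log2 fold change was 2.12 ± 0.12 (SE, adjusted p = 4.19e-68) in sgControl and 1.57 ± 0.14 (SE, adjusted p = 3.98e-26) in knockout cells. Its interaction of −0.54 ± 0.19 (SE, adjusted p = 0.0104) was lost without the third sgControl DMSO library (−0.45, adjusted p = 0.052) and when libraries were scaled by their totals (−0.41, adjusted p = 0.058).

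*AQP3*, the glycerol and water channel, fell in both genotypes from few counts: 21, 19 and 21 raw counts in DMSO against 3, 6 and 1 in abemaciclib in sgControl cells, and 34, 33 and 28 against 5, 13 and 7 in knockout cells. The log2 fold change was −2.38 ± 0.61 (SE, adjusted p = 0.000261) with *RB1* and −2.11 ± 0.48 (SE, adjusted p = 0.000109) without it. *SLC1A4*, a neutral amino acid transporter, fell in sgControl cells by 1.23 ± 0.08 (SE, adjusted p = 5.87e-57), with a knockout response of −0.01 ± 0.08 (SE, adjusted p = 0.93) and an interaction of 1.22 ± 0.11 (SE, adjusted p = 5.28e-28). The thiamine transporter *SLC19A2* passed the threshold in neither genotype, at 0.11 and −0.05.

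Of the 6 enzymes, 4 rose and 2 fell in sgControl cells, and 3 rose and 1 fell in knockout cells. In sgControl cells that is 66.7% and 33.3%, against 25.0% and 24.8% of all genes tested. In knockout cells it is 50% and 16.7%, against 14.9% and 15.1%. *ABAT*, the transaminase that breaks down the transmitter GABA, had normalized counts of 4746, 6524 and 7638 in untreated sgControl cells and 24635, 27998 and 25681.5 in treated ones. Without *RB1* they were 3898, 3699.7 and 4097 in DMSO and 4918, 5477 and 4971 in abemaciclib. The treated sgControl libraries were above the other 9. The response was 2.05 ± 0.13 (SE, adjusted p = 8.27e-59) in sgControl and 0.39 ± 0.13 (SE, adjusted p = 0.00856) in knockout cells, with an interaction of −1.66 ± 0.18 (SE, adjusted p = 1.9e-19). The knockout call was lost without the second knockout DMSO library (adjusted p = 0.052) or the second treated knockout library (adjusted p = 0.062).

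*DHRS2*, a mitochondrial dehydrogenase/reductase, moved like *SLC27A2*. Normalized counts were 866, 726 and 699 in untreated and 181, 152 and 138 in treated sgControl cells. In knockout cells they were 1034, 1178 and 1083 in DMSO and 1266, 1221 and 1324 in abemaciclib. The treated sgControl libraries were the lowest, and each knockout library was above each sgControl one. The response was −2.28 ± 0.12 (SE, adjusted p = 8.96e-84) in sgControl cells, the interaction 2.49 ± 0.15 (SE, adjusted p = 2.27e-57) and the genotype difference in abemaciclib 3.02 ± 0.12 (SE, adjusted p = 9.48e-148). The knockout response, 0.21 ± 0.10 (SE, adjusted p = 0.1), passed the threshold without the first sgControl DMSO library (adjusted p = 0.027), in a fit of the 2 knockout groups alone (0.018) and with libraries scaled by their totals (0.035).

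*CA12*, a carbonic anhydrase at the cell surface, rose by 1.03 ± 0.06 (SE, adjusted p = 6.49e-56) in sgControl cells and fell by 0.21 ± 0.06 (SE, adjusted p = 0.00478) in knockout cells on the log2 scale; the second call was lost with scaling by library totals (adjusted p = 0.079). *B4GALT1*, a galactosyltransferase, rose by 0.58 and 0.26, with an interaction of −0.32 ± 0.08 (SE, adjusted p = 0.000496) that was lost with scaling by library totals (−0.18, adjusted p = 0.15). *ELOVL2*, which lengthens polyunsaturated fatty acids, rose by 0.21 ± 0.08 (SE, adjusted p = 0.0249) and 0.56 ± 0.08 (SE, adjusted p = 4.02e-10). The sgControl call of *ELOVL2* was lost without the first DMSO library (0.15, adjusted p = 0.11) or the third treated library (0.18, adjusted p = 0.11) of that genotype. *ADCY9*, an adenylate cyclase, fell in sgControl cells by 0.37 ± 0.09 (SE, adjusted p = 0.000193). Its interaction of 0.25 ± 0.13 (SE, adjusted p = 0.12) passed the threshold without the first sgControl DMSO library (0.36, adjusted p = 0.00023) and with libraries scaled by their totals (0.40, adjusted p = 0.033).

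The largest group, membrane traffic, scaffold and cytoskeleton, had 14 genes. In sgControl cells 10 rose and 1 fell, which is 71.4% and 7.14%, against 25.0% and 24.8% of all genes tested. In knockout cells 4 rose and 5 fell, which is 28.6% and 35.7%, against 14.9% and 15.1%. The interaction was negative for 10 of the 14 and positive for 2. That is 71.4% and 14.3%, against 20.3% and 21.1% of all genes tested. *PDZK1*, a PDZ scaffold for membrane transporters, had the largest response of the genes averaging 100 normalized counts or more. In sgControl cells its normalized counts were 1030.5, 1241 and 1249.8 in DMSO and 60811.5, 57655 and 61122 in abemaciclib. Knockout cells had 257, 252 and 228.5 in DMSO and 567, 488.5 and 539 in abemaciclib. Every knockout library was below every sgControl library, and treatment separated the groups in both genotypes. On the log2 scale the response was 5.67 ± 0.08 (SE) in sgControl cells, with an adjusted p that DESeq2 gives as 0, and 1.11 ± 0.10 (SE, adjusted p = 1.25e-25) in knockout cells. The interaction was −4.56 ± 0.13 (SE, adjusted p = 7.9e-272), and knockout cells were lower than sgControl cells, with log2 differences of −2.26 ± 0.10 (SE, adjusted p = 5.99e-116) in DMSO and −6.82 ± 0.08 (SE) in abemaciclib. Its annotated copy *PDZK1P1* had 0 to 3 raw counts outside treated sgControl cells and 27 to 35 in them, and reads shared with such copies may be missing from the counts of *PDZK1*.

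*ANXA9*, an atypical annexin, stood next. Normalized counts were 252, 211.5 and 193 in untreated sgControl cells and 2738, 2546 and 2462 in treated ones. Without *RB1* they were 109, 100.3 and 123 in DMSO and 148, 123 and 123 in abemaciclib. The treated sgControl libraries were again far above the other 9, and all knockout libraries were below all sgControl libraries. The response was 3.57 ± 0.11 (SE, adjusted p = 1.48e-239) in sgControl and 0.24 ± 0.15 (SE, adjusted p = 0.22) in knockout cells, with an interaction of −3.32 ± 0.18 (SE, adjusted p = 4.54e-72). In abemaciclib knockout cells were lower, with a log2 difference of −4.30 ± 0.12 (SE, adjusted p = 6.97e-275).

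*RAB31*, a small GTPase of vesicle transport, was the member of this group that fell in sgControl cells. Its normalized counts were 726, 757 and 828 in DMSO and 305, 289.6 and 285 in abemaciclib. Knockout cells had 2273, 2408.5 and 2419 in DMSO and 2344, 2337 and 2312 in abemaciclib, which overlapped. All knockout libraries were above all sgControl libraries. The response was −1.40 ± 0.08 (SE, adjusted p = 6.15e-68) in sgControl and −0.02 ± 0.06 (SE, adjusted p = 0.84) in knockout cells, and the genotypes differed by 1.62 ± 0.07 (SE, adjusted p = 2.13e-127) in DMSO.

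*ZNF185*, a LIM domain protein of the actin cytoskeleton, changed with the drug in knockout cells. Its normalized counts were 95, 94.3 and 70.6 in untreated and 93.8, 64.6 and 74.9 in treated sgControl cells, and these overlapped. Knockout cells had 161, 164 and 164 in DMSO and 310.3, 351 and 332 in abemaciclib, without overlap. The response was −0.15 ± 0.18 (SE, adjusted p = 0.52) in sgControl and 1.02 ± 0.15 (SE, adjusted p = 9.85e-10) in knockout cells, the interaction 1.17 ± 0.24 (SE, adjusted p = 3.46e-06) and the genotype difference in DMSO 0.93 ± 0.17 (SE, adjusted p = 3.56e-07).

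*SLC9A3R1*, the scaffold with the highest level per kilobase, rose by 0.53 ± 0.07 (SE, adjusted p = 4.25e-12) in sgControl cells and fell by 0.25 ± 0.07 (SE, adjusted p = 0.0049) in knockout cells, a call lost without the second knockout DMSO library (−0.20, adjusted p = 0.061). *SYBU*, a linker of mitochondria and vesicles to kinesin, and *MYOF*, a ferlin of membrane repair, also went opposite ways, with log2 fold changes of 0.43 and −0.44 and of 0.45 and −0.25. The knockout call of *MYOF* (adjusted p = 0.040) was lost with the first treated sgControl library left out, with any of the 3 knockout DMSO libraries left out or with the first or the third treated knockout library left out (adjusted p from 0.050 to 0.17). It was also lost with scaling by library totals (0.13) and with independent filtering off (0.070). *MLPH*, the melanophilin of organelle transport, fell by 0.44 ± 0.05 (SE, adjusted p = 6e-14) in knockout cells and had a response of −0.04 ± 0.05 (SE, adjusted p = 0.54) in sgControl cells, with an interaction of −0.39 ± 0.08 (SE, adjusted p = 1.91e-06). With libraries scaled by their totals its response in sgControl cells was −0.18 (adjusted p = 0.00063). The microtubule protein gene *MAPT* rose by 0.73 in sgControl cells and had a knockout response of 0.09, and *TPD52L1*, a coiled-coil protein of vesicle traffic, had 1.27 and 0.04; neither passed the threshold in knockout cells.

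Chaperones and signalling regulators numbered 6, of which 4 rose and 0 fell in sgControl cells by DESeq2 (0 also at an unadjusted p under 0.05 and by edgeR). With libraries scaled by their totals, however, *FKBP4* (−0.19, adjusted p = 0.00012) and *FKBP5* (−0.21, adjusted p = 0.031) were called lower in sgControl cells. The rises are 66.7%, while of all genes tested 25.0% rose and 24.8% fell. In knockout cells 3 rose and 1 fell, which is 50% and 16.7%, against 14.9% and 15.1%. *HSPB8*, a small heat shock protein of chaperone-assisted autophagy, had normalized counts of 1450.3, 1608 and 1326 in untreated sgControl cells and 5921, 5912 and 6140.0 in treated ones. Without *RB1* they were 2458, 2493 and 2566 in DMSO and 2536, 2421 and 2457 in abemaciclib. Knockout libraries lay between the untreated and the treated sgControl libraries and overlapped with each other. The response was 2.04 ± 0.07 (SE, adjusted p = 6.08e-202) in sgControl and −0.02 ± 0.07 (SE, adjusted p = 0.87) in knockout cells, with an interaction of −2.06 ± 0.10 (SE, adjusted p = 1.92e-101).

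*DEPTOR*, an inhibitor of the kinase mTOR, rose in both genotypes from unequal levels. Normalized counts were 738, 725 and 673 in untreated and 2492, 2520.4 and 2311.5 in treated sgControl cells. Knockout cells had 349.8, 345 and 375 in DMSO and 615, 655 and 620.3 in abemaciclib. Treated knockout libraries stayed below the untreated sgControl libraries. The response was 1.78 ± 0.07 (SE, adjusted p = 4.36e-137) and 0.82 ± 0.09 (SE, adjusted p = 1.7e-19), the interaction −0.96 ± 0.11 (SE, adjusted p = 1.22e-16) and the difference between genotypes in DMSO −0.99 ± 0.08 (SE, adjusted p = 2.76e-30).

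*SIAH2*, a ubiquitin ligase, rose by 1.09 and 0.45. *FKBP4* and *FKBP5*, the immunophilin cochaperones of steroid receptors, did not pass the threshold in sgControl cells, at −0.07 ± 0.07 (SE, adjusted p = 0.48) and −0.08 ± 0.07 (SE, adjusted p = 0.37), and *FKBP5* became called without the first sgControl DMSO library (−0.14, adjusted p = 0.024). In knockout cells *FKBP4* fell by 0.26 ± 0.07 (SE, adjusted p = 0.00219). Without the first sgControl DMSO library *FKBP4* also became called for the interaction, at −0.26 (adjusted p = 0.0013) against −0.19 ± 0.10 (SE, adjusted p = 0.13) with it, and between genotypes in abemaciclib, at −0.12 (adjusted p = 0.027) against −0.12 ± 0.07 (SE, adjusted p = 0.14). *FAM102A* rose by 0.81 ± 0.04 (SE, adjusted p = 1.16e-81) in sgControl cells, and its knockout call at 0.11 ± 0.04 (SE, adjusted p = 0.0256) was lost without the first or the third knockout DMSO library or any of the 3 treated knockout libraries (adjusted p from 0.078 to 0.16).

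**Figure D2:**
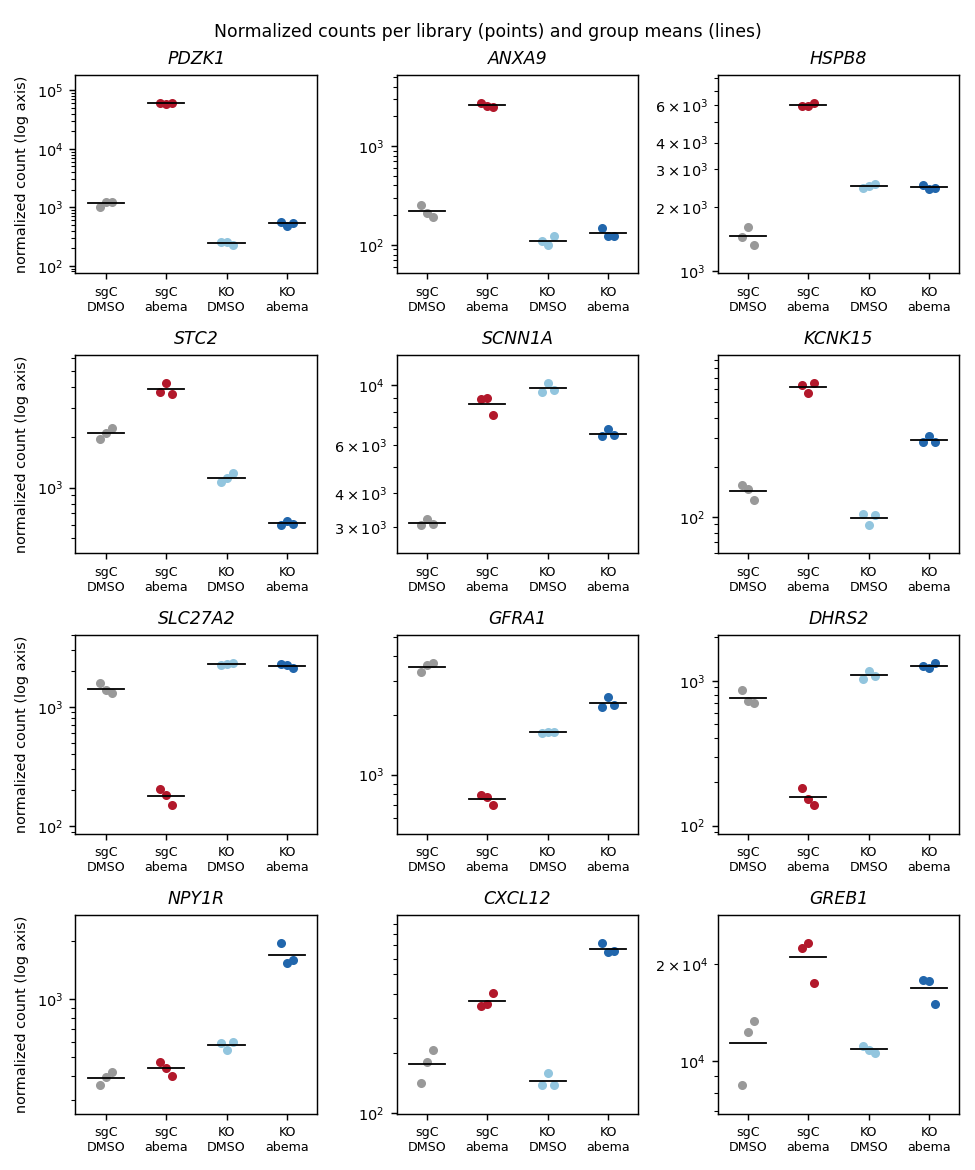
Normalized counts (log axis) of 12 of the genes in each library, as points, with the mean of each group of 3 as a line; sgC is sgControl, KO is RB1 knockout and abema is abemaciclib. PDZK1, ANXA9 and HSPB8 are high in treated sgControl cells alone, SLC27A2, GFRA1 and DHRS2 are low in them, and NPY1R and CXCL12 are highest in treated knockout cells.

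Set side by side, the responses in the genotypes came from separate libraries. Of the 36 genes that rose in sgControl cells, 19 rose, 6 fell and 11 did not pass the threshold in knockout cells. Of the 11 that fell, 2 fell (*AQP3* and *INHBB*), 2 rose (*AREG* and *GFRA1*) and 7 did not pass. The same split was not counted over all genes. Of all genes tested 49.8% were called in sgControl cells and 30% in knockout cells, so fewer calls in knockout cells were general. The 6 that rose with *RB1* and fell without it were *CA12*, *SLC9A3R1*, *STC2*, *SYBU*, *MYOF* and *SCNN1A*, and the interaction of each of the 8 genes with opposite responses passed the threshold, from −2.01 for *SCNN1A* to 2.72 for *GFRA1*. The knockout calls of *CA12*, *SLC9A3R1* and *MYOF* were lost under some alternatives, as given above. The log2 change was larger in size in sgControl cells for 42 of the 54 genes. Pearson's r between the responses was 0.53 and Spearman's rho 0.39 over the 54 genes, which is a description across genes and not across independent replicates.

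**Figure D3:**
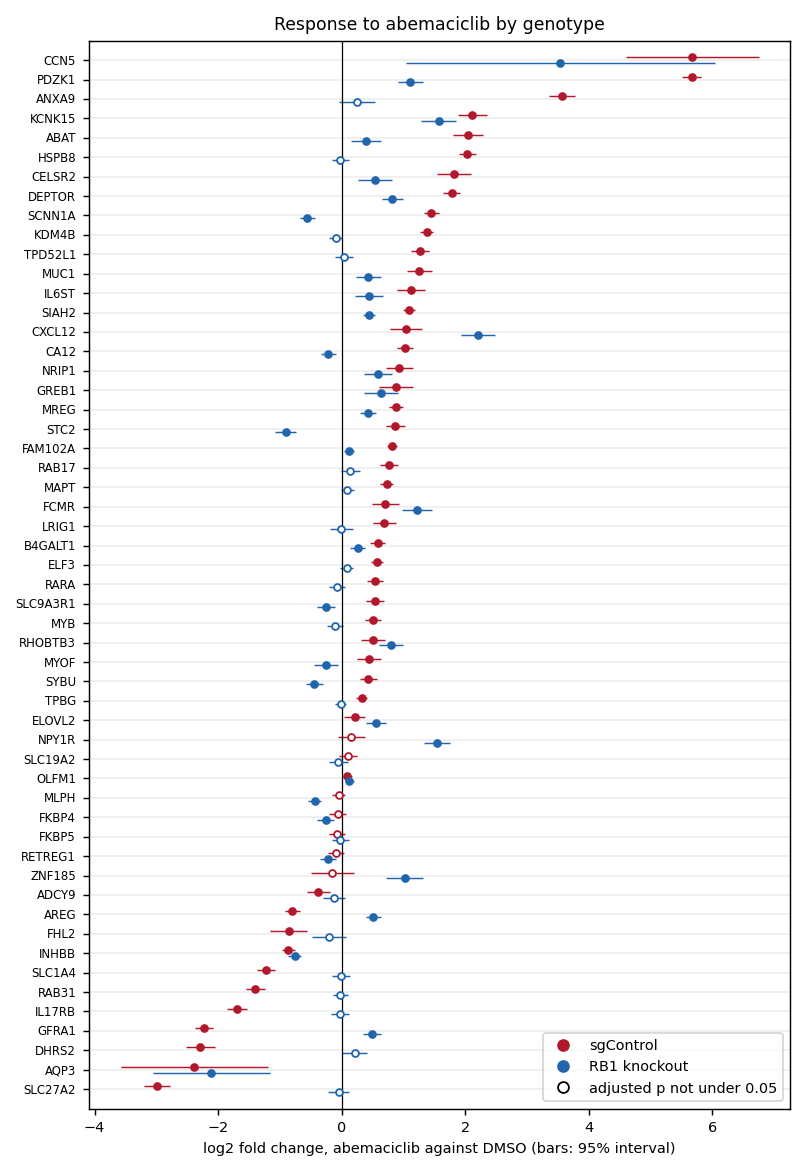
Log2 fold change of each of the 54 genes for abemaciclib against DMSO, in sgControl cells (red) and RB1-knockout cells (blue), with 95% intervals; open points did not pass an adjusted p of 0.05. Most red points lie to the right of 0, and for 42 of the 54 genes the blue point lies closer to 0 than the red one. Over all genes tested the median size of the change was likewise smaller in knockout cells, at 0.24 against 0.59. CXCL12, NPY1R and ZNF185 are among the genes where the blue point lies farther from 0. The blue point of CCN5 rests on 15 counts.

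Without drug, knockout cells differed from sgControl cells in both directions. In DMSO 20 of the 54 genes were higher and 21 lower in knockout cells, and 19.2% and 18.2% of all genes tested were. The median log2 difference was −0.12, against −0.01 over all genes. Among genes averaging 100 normalized counts or more, *SCNN1A*, *RAB31* and *ZNF185* had the largest positive differences, at 1.65, 1.62 and 0.93, and *PDZK1*, *GFRA1* and *DEPTOR* the largest negative ones, at −2.26, −1.10 and −0.99. Without the loop-linked genes 19 were higher and 20 lower. Leaving out the first sgControl DMSO library gave 21 higher and 26 lower and a median of −0.16; *NRIP1*, *LRIG1*, *IL6ST*, *CXCL12* and *FKBP5* (lower in knockout) and *FKBP4* (higher) then passed the threshold. With each library left out in turn, 18 to 21 were higher and 19 to 26 lower. The calls of *CELSR2* (adjusted p = 0.064), *AQP3* (up to 0.12), *MUC1* (up to 0.12), *RAB17* (up to 0.070) and *MAPT* (up to 0.19) were each lost in at least one such fit. That of *MAPT* was also lost with edgeR (0.071) and with scaling by library totals (0.067).

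In abemaciclib 17 were higher and 32 lower in knockout cells, with 5 not past the threshold, while 28.5% of all genes tested were higher and 27.4% lower. The median log2 difference was −0.47, against 0.02 over all genes. Among genes averaging 100 normalized counts or more, the largest negative differences were those of *PDZK1*, *ANXA9* and *STC2*, at −6.82, −4.30 and −2.66, and the largest positive ones those of *SLC27A2*, *DHRS2* and *RAB31*, at 3.63, 3.02 and 2.99. Without the loop-linked genes the counts were 17 and 30. This comparison shares its treated libraries with both responses, so its values add no separate evidence to them.

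**Figure D4:**
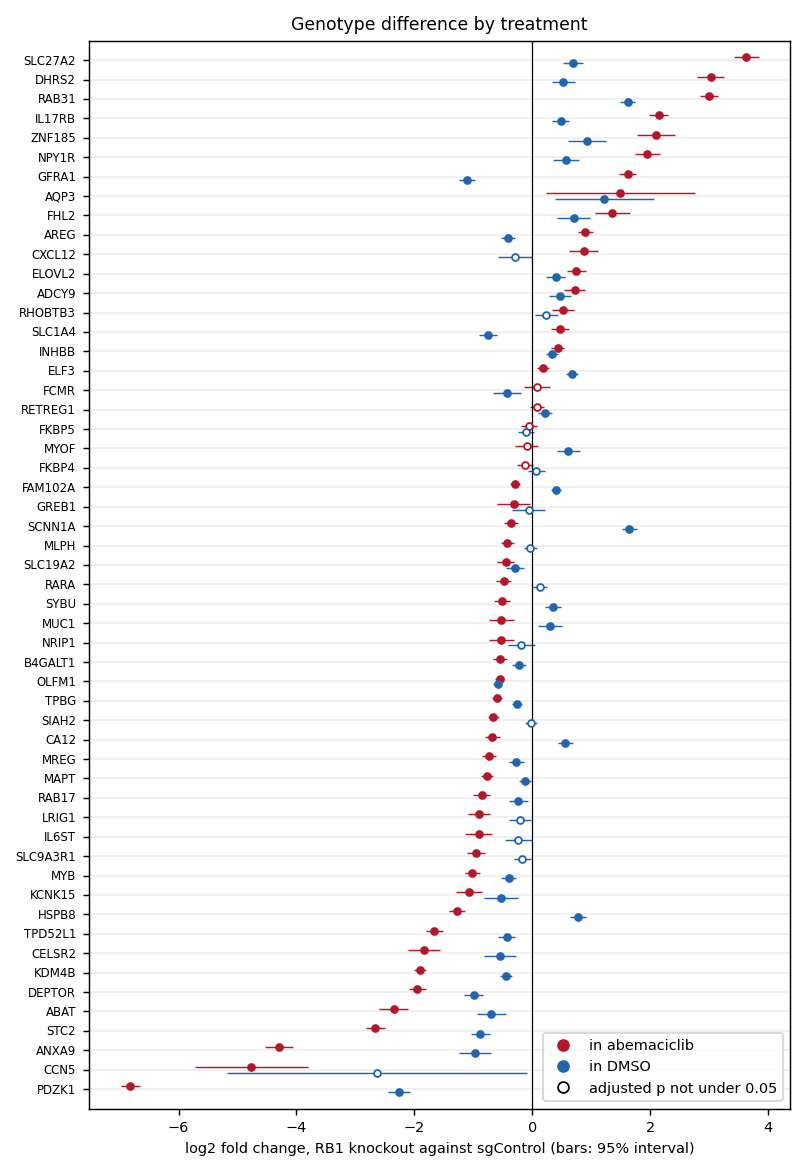
Log2 fold change of each of the 54 genes for RB1 knockout against sgControl in abemaciclib (red) and in DMSO (blue), with 95% intervals; open points did not pass an adjusted p of 0.05. Genes are ordered by the difference in abemaciclib, from −6.82 for PDZK1 to 3.63 for SLC27A2, and most blue points lie nearer to 0 than the red ones.

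The receptor and its cofactors were read from a list of 27 genes fixed beside the response genes, also with earlier results of these data known. In sgControl cells 14 of the 27 rose, 3 fell and 10 did not pass the threshold; in knockout cells 3 of 26 rose and 4 fell. These are 51.9% and 11.1% of the list in sgControl cells, against 25.0% and 24.8% of all genes tested, and 11.5% and 15.4% in knockout cells, close to the 14.9% and 15.1% of all genes. The 10 receptors and pioneer factors account for 9 of the 14 that rose. *ESR1*, the oestrogen receptor alpha gene, had a log2 response of 0.59 ± 0.10 (SE, adjusted p = 1.08e-08) in sgControl and −0.39 ± 0.10 (SE, adjusted p = 0.000658) in knockout cells, and the difference was −0.98 ± 0.14 (SE, adjusted p = 2.65e-11). *FOXA1* had 0.46 ± 0.05 (SE, adjusted p = 2.35e-16) and −0.12 ± 0.06 (SE, adjusted p = 0.086), and *GATA3*, another luminal factor, 0.28 ± 0.06 (SE, adjusted p = 5.37e-05) and −0.21 ± 0.06 (SE, adjusted p = 0.00522). *PGR*, the progesterone receptor and a classic receptor target, rose by 0.30 ± 0.10 (SE, adjusted p = 0.009) in sgControl cells and by 1.06 ± 0.10 (SE, adjusted p = 6.09e-22) without *RB1*, with a positive interaction of 0.76 ± 0.15 (SE, adjusted p = 1.62e-06). *ESR2*, the oestrogen receptor beta gene, was barely detected, with a mean of 2.68 normalized counts. *GPER1*, the G protein-coupled oestrogen receptor, averaged 87.5 normalized counts and had the largest sgControl response of the list, 3.31 ± 0.24 (SE, adjusted p = 9.4e-41). Its knockout response was 0.84 ± 0.19 (SE, adjusted p = 0.00013) and its interaction −2.48 ± 0.31 (SE, adjusted p = 1.94e-14).

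Among the coactivators, in sgControl cells 2 of 10 rose and 1 fell, and in knockout cells 0 rose by DESeq2 (0 also at an unadjusted p under 0.05 and by edgeR) and 1 fell. The 20% of coactivators that rose in sgControl cells was near the 25.0% of all genes tested. *CARM1* and *NCOA1* were those that rose, by 0.29 and 0.40, and *PRMT1* fell by 0.42. Of the 7 corepressors and demethylases, 3 rose and 2 fell in sgControl cells. That is 42.9% and 28.6%, against 25.0% and 24.8% of all genes tested. *KDM5B*, a demethylase of histone H3 lysine 4, changed most, with 1.37 ± 0.05 (SE, adjusted p = 1.03e-153) in sgControl and 0.35 ± 0.05 (SE, adjusted p = 2.7e-10) in knockout cells, with an interaction of −1.02 ± 0.07 (SE, adjusted p = 3.05e-42).

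Promoter sequence was examined for 46 of the 55 genes, those with an entry in the RefSeq promoter table (GRCh38.p14; 250 bases before to 50 after the start). Read on either strand, the full palindrome GGTCANNNTGACC was in none of the 46, and in 18 of 27305 promoters of all genes (0.0659%). The single arm of the palindrome, GGTCA, was in 16 of 46 (34.8%) and in 37.7% of all promoters; the full palindrome contains it. The E2F sequences TTTCCCGC, TTTGGCGC and TTTCGCGC were in none of the 46, against 2.79% of all. These are matches of letters in a short window, and nothing about binding follows from them. The 250 bases before the start are given for *PDZK1* and *ANXA9*, which rose most, and *SLC27A2* and *DHRS2*, which fell most, in sgControl cells among genes averaging 100 normalized counts or more, 5′ to 3′ on the strand of the gene, with GGTCA and its complement in capitals.
PDZK1, chr1:145707401-145707650, minus strand: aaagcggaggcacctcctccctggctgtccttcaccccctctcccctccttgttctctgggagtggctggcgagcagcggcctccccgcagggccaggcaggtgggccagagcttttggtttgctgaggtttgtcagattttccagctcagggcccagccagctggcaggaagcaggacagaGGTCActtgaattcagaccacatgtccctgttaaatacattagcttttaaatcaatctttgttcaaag
ANXA9, chr1:150982042-150982291, plus strand: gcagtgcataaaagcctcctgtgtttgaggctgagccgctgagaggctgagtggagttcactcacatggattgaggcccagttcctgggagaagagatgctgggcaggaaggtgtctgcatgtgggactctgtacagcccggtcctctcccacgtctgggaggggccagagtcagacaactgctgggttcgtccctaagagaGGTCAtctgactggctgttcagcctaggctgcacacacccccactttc
SLC27A2, chr15:50181946-50182195, plus strand: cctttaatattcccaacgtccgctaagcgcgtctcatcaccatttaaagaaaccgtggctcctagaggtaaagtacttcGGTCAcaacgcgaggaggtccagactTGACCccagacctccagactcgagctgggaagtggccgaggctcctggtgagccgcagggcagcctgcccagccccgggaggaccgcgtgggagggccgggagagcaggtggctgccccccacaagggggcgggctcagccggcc
DHRS2, chr14:23629865-23630114, plus strand: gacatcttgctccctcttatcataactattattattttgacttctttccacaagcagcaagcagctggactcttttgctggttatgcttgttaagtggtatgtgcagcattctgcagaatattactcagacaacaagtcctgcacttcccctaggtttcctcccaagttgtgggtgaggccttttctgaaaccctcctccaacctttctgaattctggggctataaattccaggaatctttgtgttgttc
*PDZK1* and *ANXA9* each held 1 such site in this stretch, *SLC27A2* held 2 and *DHRS2* none, with G and C making up 55.6%, 58.0%, 64.4% and 43.2% of the bases. The stretch of *PDZK1* lies inside the span of the gene in GENCODE 44, which gives it an earlier start.

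The genes lie on 20 chromosomes. *PDZK1* spans chr1:145670852-145708148 on the minus strand, *ANXA9* chr1:150982249-150995634 on the plus strand, *SLC27A2* chr15:50182196-50236385 on the plus strand and *GREB1* chr2:11482341-11642788 on the plus strand (GENCODE 44 on GRCh38). *KCNK15* and *CCN5* are neighbours on chromosome 20, at 44745865 to 44752313 and 44714844 to 44728509, and the antisense gene *KCNK15*-AS1 overlaps both. Of the 55 genes, 18 overlap an annotated gene on the same strand and 38 one on the opposite strand, so their counts may hold reads of a neighbour.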

How the data were processed

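The deposited table holds raw counts per gene, which the authors made by trimming reads with BBDuk, aligning them to hg38 with STAR 2.7.5b and counting them with featureCounts 2.0.1; versions are per the labels. Strand setting and multimapping are not given in the sources used here. The labels name a directional whole-transcript kit and the study's general methods a 3′ kit; with a 3′ kit, levels per kilobase would not hold. Of 60656 rows, 44 without a symbol (0% of counts) were left out. Totals ranged from 39907318 to 81636393.

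DESeq2 1.42.0 in R 4.3.3 fitted 1 model with a term for group to all 12 samples, over the whole table, with median-of-ratios size factors, two-sided Wald tests, no shrinkage and Benjamini–Hochberg adjustment after independent filtering; genes with an adjusted p under 0.05 were called. Every adjusted p in the text is from this model unless another is named. Counts divided by size factors are called normalized counts, and ± marks the SE of a fold change or the SD over 3 replicates. The scripts were tested on simulated data. Groups came from the sample titles. Alternatives were edgeR 4.0.16, TMM or total-count scaling, independent filtering off, a minimum of 10 counts in 3 libraries, a replicate block, the compared groups alone and leaving out each library; leaving out the loop-linked genes was added after seeing the data.

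No label ties a replicate number to a shared day or culture. Between treated sgControl and treated knockout libraries, the deviations from the group mean correlated across genes by 0.15, 0.26 and 0.11 for libraries of the same number, and the blocked value is given where it changed a call there; elsewhere not every correlation was over 0.1. The members, their groups by role and the list of receptor cofactors were chosen with earlier results of these data known. Values in every library are given for the 5 members with the largest change in each direction for the sgControl response and the interaction, and the 3 for the other contrasts, among those called, averaging 100 normalized counts or more and with replicates that did not overlap, and for GREB1; counts of CCN5 and AQP3 were added after their values were seen. Coordinates are from GENCODE 44 on GRCh38 and promoters from RefSeq GRCh38.p14.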

Additional observations from a re-analysis of the deposited data

Results flagged for a closer look

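The response to abemaciclib differed between the genotypes, by the interaction in DESeq2 at an adjusted p under 0.05, for 42 of the 54 oestrogen response genes tested. That is 77.8%, against 41.4% of all 20932 genes tested. That background was not matched for expression, and 52 of the 55 oestrogen response genes averaged 100 normalized counts or more. By direction, 53.7% of the 54 were negative and 24.1% positive, against 20.3% and 21.1% of all genes. The positive share was thus near that of all genes. Values below are the log2 response in *RB1*-knockout cells minus that in sgControl cells, from 3 replicates a group.

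The difference was below −1 for *PDZK1* (−4.56), *ANXA9* (−3.32), *HSPB8* (−2.06), *SCNN1A* (−2.01), *STC2* (−1.78), *ABAT* (−1.66), *KDM4B* (−1.47), *CELSR2* (−1.28), *CA12* (−1.24) and *TPD52L1* (−1.23). It lay between −1 and −0.6 for *DEPTOR* (−0.96), *SYBU* (−0.87), *MUC1* (−0.82), *SLC9A3R1* (−0.78), *MYOF* (−0.70), *LRIG1* (−0.70), *FAM102A* (−0.70), *IL6ST* (−0.67), *SIAH2* (−0.64), *MAPT* (−0.64), *RAB17* (−0.63), *MYB* (−0.61) and *RARA* (−0.61). Smaller negative differences were those of *KCNK15* (−0.54), *ELF3* (−0.49), *MREG* (−0.46), *MLPH* (−0.39), *TPBG* (−0.34) and *B4GALT1* (−0.32). Of these, the calls of *KCNK15* (−0.41, adjusted p = 0.058), *TPBG* (−0.20, adjusted p = 0.057) and *B4GALT1* (−0.18, adjusted p = 0.15) were lost when libraries were scaled by their totals.

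Positive differences were those of *SLC27A2* (2.94), *GFRA1* (2.72), *DHRS2* (2.49), *IL17RB* (1.67), *NPY1R* (1.39), *RAB31* (1.38), *AREG* (1.31), *SLC1A4* (1.22), *ZNF185* (1.17), *CXCL12* (1.16), *FHL2* (0.65), *FCMR* (0.51) and *ELOVL2* (0.35). Among these, *SLC27A2*, *GFRA1*, *DHRS2*, *IL17RB*, *RAB31*, *SLC1A4*, *AREG* and *FHL2* fell in sgControl cells, *NPY1R* and *ZNF185* did not pass the threshold there, and *CXCL12*, *FCMR* and *ELOVL2* rose in both genotypes.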

How the results depend on the processing

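No count of members called in a contrast moved by more than 1.5 times under any alternative. Of 270 member results, 40 changed their call under at least 1 alternative, and 16 of the 213 calls were lost when 1 library was left out. Scaling by library totals moved the median of all genes by −0.13 for the response in sgControl cells, 0.14 for the interaction and 0.11 for the genotype difference in abemaciclib, and with it the members' medians to 0.43, −0.29 and −0.36 (log2), more than the SD between replicates of 0.034. Under that scaling *OLFM1* turned from 0.09 to −0.040 (adjusted p = 0.61) in sgControl cells; the cause was not tested. The median genotype difference in DMSO ranged from −0.16, without the first sgControl DMSO library, to −0.084, without the third, when 1 library was left out. In the fit with a replicate block the calls of *OLFM1* in sgControl cells (0.09, adjusted p = 0.097) and *GREB1* between genotypes in abemaciclib (−0.32, adjusted p = 0.20) were lost and the interaction of *NRIP1* (−0.35, adjusted p = 0.046) was gained; the block changed no other call of a member. Depth limits the precision of the genes with few counts, *CCN5*, *AQP3* and *CALCR*.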
